A study of Homo sapiens with 10 samples.

Results

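The zinc finger genes of human chromosome 19 were taken from the deposited count tables as the protein-coding genes on that chromosome whose symbol is ZNF followed by a digit. The rule gave 249 members of the 58676 genes counted. The choice used the symbol and the position, not a measured value. For comparison, the same symbol rule gave 265 protein-coding ZNF genes on other chromosomes, and chromosome 19 held 1215 other protein-coding genes.

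Most of these genes encode proteins that read DNA with an array of C2H2 zinc fingers, short folds that hold a zinc ion and each contact a few bases. A majority also carry a KRAB domain, which recruits the co-repressor TRIM28 (KAP1), and through it the histone methyltransferase SETDB1 and heterochromatin proteins, above all at transposable elements. The genes arose by repeated tandem duplication, lie in clusters of close paralogs along chromosome 19, and are mostly transcribed at low levels.

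RNA was sequenced from HEK293T cells, a line derived from human embryonic kidney that carries the SV40 large T antigen. The cells had overexpressed BRSK2 (3 libraries) or BRSK1 (3 libraries), related kinases of the AMPK family best known from neurons, for 24 h, or hcRED, the usual name of a red fluorescent protein (2 libraries), for the same time. Mock samples (2 libraries) served as the other control, and the labels state no time or agent for them. The labels do not say whether replicates came from separate cultures, and p-values here reflect only how far these libraries spread, which may be technical.

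Total counts per library ran between 16516116 and 24304302, and the members took 0.203% to 0.233% of them. BRSK2 stood at 72750 to 108888 CPM (counts scaled to a common library total) in its own libraries, against 69.9 to 97.7 CPM in the other 7, and BRSK1, itself a gene of chromosome 19, stood at 46186 to 70223 CPM in its own libraries, against 10.2 to 29.5 CPM in the other 7. Of 9 markers of blood, liver, muscle, thyroid and vessel cells, 8 stayed at or below 0.291 CPM in every library. The muscle gene ACTN2 was the exception, at 4.75 to 9.22 CPM, so the summed level of the list was 6.24 to 9.41 CPM with BRSK2, 6.24 to 7.97 CPM with BRSK1, 6.22 and 6.56 CPM with hcRED and 4.95 and 6.41 CPM in Mock, and its part in the results was not tested. The HEK293T markers VIM, LIN28B and NEFM were at 91.9 CPM or above in every library, and PAX2 at 2.43 to 5.73 CPM. Some of them moved with the groups: VIM rose by 0.40 with BRSK2 and by 0.46 with BRSK1 on the log2 scale (edgeR adjusted p = 0.000464 and 0.000241), LIN28B fell by 0.26 with BRSK2 (0.0198), and NEFM rose by 0.23 with BRSK2 (0.0163) and fell by 0.42 in hcRED against Mock (0.048). Their part in the results was not tested.

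Of the 249 members, 194 were tested and 55 were not, because too few libraries held enough counts, and 17 of those 55 had no count in any library. The untested members had at most 0.263 CPM as a mean over the 10 libraries. Among the 194, 176 reached the count cutoff in every library of all 4 groups, and 7 reached it throughout in at most 1 group. A further caution concerns counting: 59 members overlap another member on the map (47 of the tested ones), 3 are readthrough genes (ZNF559-ZNF177, ZNF625-ZNF20 and ZNF816-ZNF321P), and the strand setting of the counting is not given in the sources used here, so reads of overlapping or near-identical genes may have been split between them.

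The tested members were low and rich in A and T. Their median level was 6.6 CPM, against 16.5 CPM over all 16936 tested genes, and 136 of the 194 lay under 10 CPM. The median GC content of their longest transcript was 42.5%, against 49.2% over all tested genes. A KRAB A-box pattern was found in an annotated reading frame of 204 of the 249 members and not in 42. The other 3 had no reading frame in the annotation. The median number of C2H2 fingers found was 12, with a range of 0 to 36. The 36 tested members without the KRAB pattern differed from the 158 with it in composition and level, with a median GC content of 59.2% against 42.1% and a median level of 16.8 CPM against 6.02 CPM.

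Cutting the chromosome where neighbouring starts lay more than 1 Mb apart gave 9 clusters of at least 5 members and 11 scattered genes. From the short arm to the end of the long arm, the clusters began at 2.82, 7.07, 11.5, 19.7, 34.7, 36.2, 43.5, 51.6 and 55.5 Mb and held 5, 17, 27, 36, 5, 26, 24, 39 and 59 members. Cluster 4, on the short arm beside the centromere, was the most AT-rich, with a median GC content of 37.4%, and cluster 9, next to the end of the long arm, the least among the clusters of more than 5, at 46.6%. Detection differed too: 25 of 26 members of cluster 6 and 23 of 24 of cluster 7 were tested, against 13 of 27 in cluster 3 and 20 of 36 in cluster 4.

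Per kilobase of gene length, the scale on which genes can be compared, ZNF146 stood highest at 28.3 CPM per kb. ZNF146, also called OZF, consists almost only of zinc fingers and is known for overexpression in some carcinomas. The next in order were ZNF581 at 21.5, ZNF428 at 21.2, ZNF787 at 17.9 and ZNF579 at 14.6 CPM per kb, and all 5 lacked the KRAB pattern. ZNF581 and ZNF428 were too close to be ranked, since ZNF581 alone spanned 26.1 to 54.8 CPM over the libraries. ZNF146 had 110, 108 and 114 CPM in the BRSK2 libraries, 113, 120 and 110 CPM in the BRSK1 libraries, 118 and 119 CPM in the hcRED libraries and 129 and 130 CPM in the Mock libraries. ZNF146 overlaps ZNF565 on the opposite strand. The BRSK2 libraries lay below both control groups, but the difference from hcRED and Mock did not pass the test (log2 fold change -0.16 ± 0.06, SE, edgeR adjusted p = 0.0772). It passed with Mock alone as control (-0.23, adjusted p = 0.0462) and with scaling by library totals (-0.27, adjusted p = 0.00375). The latter scaling also lowers the median fold change of all tested genes with BRSK2.

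Few members changed when either kinase was overexpressed. With BRSK2, 5 of 194 members passed the test against hcRED and Mock (edgeR's quasi-likelihood test, Benjamini-Hochberg over all tested genes, adjusted p under 0.05), which is 2.58% of them, where 7.82% of all tested genes passed. Of the 5, ZNF581 and ZNF837 rose (4.77% of all tested genes rose), and ZNF587B, ZNF772 and ZNF260 fell (3.05% of all tested genes fell). With BRSK1, 6 members passed, or 3.09% where 6.43% of all tested genes passed. ZNF581 rose (background 3.77%), and ZNF587B, ZNF134, ZNF850, ZNF121 and ZNF526 fell (background 2.66%). The counts depend on single libraries: with BRSK2, 15 members passed without BRSK2 replicate 1, 2 without BRSK2 replicate 2 or 3, and 3 without Mock replicate 3 or hcRED replicate 1. With BRSK1, 2 passed without BRSK1 replicate 3 or hcRED replicate 1, 3 without BRSK1 replicate 2 or Mock replicate 3. Scaling by library totals alone gave 2 higher and 24 lower with BRSK2, but this scaling also lowers the median fold change of all tested genes with BRSK2. Both comparisons use the same 4 control libraries, so they are not independent of each other. In bulk libraries, fewer cells that transcribe a gene and less of its RNA per cell cannot be told apart.

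The levels of the members set the reach of the test. The median standard error of a log2 fold change was 0.15 for the members and 0.11 for all tested genes, in both kinase comparisons. Among genes of 8.08 to 28.1 CPM, the middle one of 5 equal groups of tested genes by level, 2 of 63 members passed with BRSK2 (3.17%), against 8.87% of 3324 non-members, and 3 of 63 passed with BRSK1 (4.76%), against 8.33%. In the group below it, of 1.28 to 8.08 CPM, 2 of 96 members passed with BRSK2 (2.08%), against 4.92% of non-members, and 1 of 96 with BRSK1 (1.04%), against 3.92%. In the group above, of 28.1 to 68.6 CPM, 1 of 13 members passed with BRSK2 (7.69%), against 12% of non-members, and 2 of 13 with BRSK1 (15.4%), against 8.54%, so the order was not the same in every level range.

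**Figure D1:**
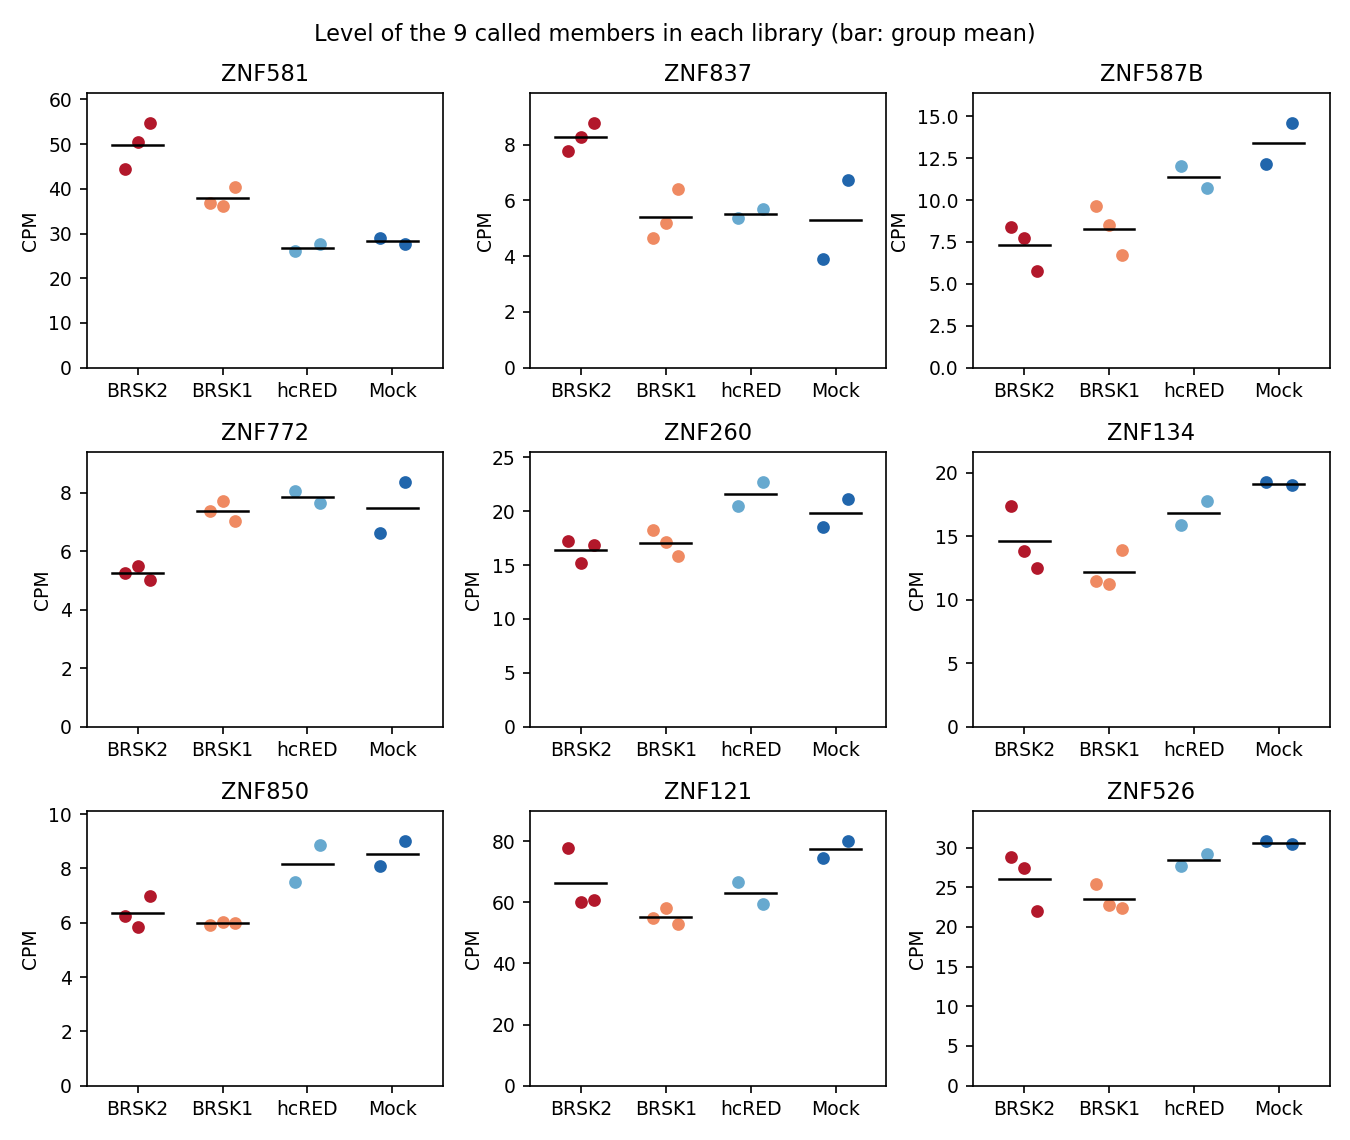
Level in CPM (linear axis from 0) of the 9 called members in each library of the BRSK2, BRSK1, hcRED and Mock groups; points are libraries and bars are group means. ZNF581 shows 3 levels, with BRSK2 above BRSK1 and BRSK1 above both controls, while ZNF837 and ZNF772 differ in the BRSK2 libraries and ZNF121 shows a gap between hcRED and Mock as well.

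ZNF581 (ENSG00000171425, chr19:55635459-55645622 on hg38, plus strand) was the member with the smallest p in both kinase comparisons. It encodes a small protein in which 4 C2H2 fingers and no KRAB pattern were found. It stood at 44.4, 50.5 and 54.8 CPM in the BRSK2 libraries, 36.8, 36.3 and 40.5 CPM in the BRSK1 libraries, 26.1 and 27.7 CPM in the hcRED libraries and 29 and 27.7 CPM in the Mock libraries. All 6 kinase libraries lay above all 4 control libraries, and all BRSK2 libraries lay above all BRSK1 libraries. The log2 fold change against hcRED and Mock was 0.85 ± 0.08 with BRSK2 (SE, edgeR adjusted p = 3.06e-07), a 1.81-fold rise, and 0.46 ± 0.08 with BRSK1 (adjusted p = 0.00182), a 1.37-fold rise. Both calls held under all 21 alternatives of processing and of libraries left out. ZNF581 shares the map with its same-strand neighbours ZNF580 and CCDC106, so reads may be misassigned among them. Their fold changes were -0.05 and 0.02 with BRSK2 and -0.08 and 0.03 with BRSK1 on the log2 scale, and neither passed the test.

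ZNF837 (chr19:58367618-58381060, minus strand), near the end of the long arm, encodes 8 C2H2 fingers and no KRAB pattern. Its level was 7.78, 8.26 and 8.78 CPM with BRSK2, 4.64, 5.18 and 6.39 CPM with BRSK1, 5.37 and 5.68 CPM with hcRED and 3.89 and 6.73 CPM in Mock. The BRSK2 libraries lay above all others, and the BRSK1 and control libraries overlapped. The log2 fold change was 0.61 ± 0.17 with BRSK2 (SE, edgeR adjusted p = 0.0276) and -0.0004 ± 0.17 with BRSK1 (adjusted p = 0.999), and the direct difference of BRSK2 from BRSK1 was 0.61 ± 0.18 and did not pass (adjusted p = 0.15). The BRSK2 call was lost when each library's trend with GC content was removed (0.55, adjusted p = 0.0562), with either control alone (adjusted p = 0.117 with hcRED and 0.068 with Mock), and without BRSK2 replicate 2 (0.0838) or 3 (0.137), Mock replicate 2 (0.105), or hcRED replicate 1 (0.0898) or 3 (0.0614).

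ZNF587B (chr19:57819741-57846238, plus strand), a KRAB zinc finger gene with 15 fingers, fell with both kinases. Its level was 8.38, 7.72 and 5.79 CPM with BRSK2, 9.66, 8.5 and 6.72 CPM with BRSK1, 12.1 and 10.7 CPM with hcRED and 12.2 and 14.6 CPM in Mock. All kinase libraries lay below all control libraries. The log2 fold change was -0.75 ± 0.15 with BRSK2 (SE, edgeR adjusted p = 0.0026) and -0.58 ± 0.14 with BRSK1 (adjusted p = 0.0189), levels of 0.594 and 0.67 times the controls. The BRSK2 call held under all 21 alternatives. The BRSK1 call was lost with hcRED alone as control (adjusted p = 0.198), without BRSK1 replicate 2 (0.0535) or 3 (0.152), without Mock replicate 3 (0.0685) and without hcRED replicate 1 (0.0806). ZNF587B overlaps ZNF586 on the same strand, whose fold changes of -0.19 and -0.18 did not pass, and an untested gene, CTD-2583A14.10, spans it.

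ZNF772 (chr19:57466663-57477570, minus strand), with a KRAB pattern and 10 fingers, fell with BRSK2. Its level was 5.26, 5.51 and 5.03 CPM with BRSK2, 7.39, 7.70 and 7.01 CPM with BRSK1, 8.06 and 7.64 CPM with hcRED and 6.61 and 8.37 CPM in Mock. The BRSK2 libraries lay below all others, and the BRSK1 libraries lay among the controls. An untested protein-coding gene, AC004076.9, overlaps ZNF772 on the same strand. The log2 fold change was -0.54 ± 0.14 with BRSK2 (SE, edgeR adjusted p = 0.0211) and -0.06 ± 0.13 with BRSK1 (adjusted p = 0.848), and the direct difference, -0.48 ± 0.15, did not pass (adjusted p = 0.168). The BRSK2 call was lost with hcRED alone (adjusted p = 0.0533) or Mock alone (0.0744) as control, and without BRSK2 replicate 2 (0.0588) or 3 (0.111), Mock replicate 3 (0.0998) or hcRED replicate 1 (0.0705).

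ZNF260 (chr19:36510695-36528660, minus strand), whose rodent counterpart is known as a regulator in heart muscle, has 13 fingers and no KRAB pattern, and an antisense gene, AC092295.4, overlaps it. Its level was 17.3, 15.1 and 16.9 CPM with BRSK2, 18.3, 17.2 and 15.8 CPM with BRSK1, 20.4 and 22.7 CPM with hcRED and 18.6 and 21.1 CPM in Mock. The kinase libraries lay below all control libraries. The log2 fold change was -0.34 ± 0.10 with BRSK2 (SE, edgeR adjusted p = 0.0364), and with BRSK1 it was -0.28 ± 0.10 and did not pass (adjusted p = 0.0828). The BRSK2 call was lost in 8 of 21 alternatives, among them the GC correction (adjusted p = 0.0687), either control alone (0.0542 with hcRED and 0.164 with Mock), and leaving out BRSK2 replicate 2 (0.185) or 3 (0.11), Mock replicate 3 (0.13), or hcRED replicate 1 (0.0541) or 3 (0.122).

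The other members that fell with BRSK1 were ZNF134, ZNF850, ZNF121 and ZNF526. ZNF134 (chr19:57614233-57624723, plus strand), with 10 fingers, had 17.4, 13.9 and 12.5 CPM with BRSK2, 11.5, 11.2 and 13.9 CPM with BRSK1, 15.9 and 17.8 CPM with hcRED and 19.3 and 19 CPM in Mock, a log2 fold change of -0.56 ± 0.12 with BRSK1 (SE, edgeR adjusted p = 0.00713). Its BRSK1 libraries lay below all controls, and 1 BRSK2 library lay among them. The call was lost only with hcRED alone as control (adjusted p = 0.114) among the 21 alternatives. ZNF850 (chr19:36714383-36772825, minus strand), a KRAB gene with 29 fingers, had 6.24, 5.85 and 7.0 CPM with BRSK2, 5.92, 6.02 and 5.98 CPM with BRSK1, 7.49 and 8.86 CPM with hcRED and 8.08 and 9.01 CPM in Mock, and a log2 fold change of -0.48 ± 0.14 with BRSK1 (adjusted p = 0.0337). All kinase libraries lay below all controls, yet the BRSK2 value of -0.40 ± 0.14 did not pass (adjusted p = 0.0769). The BRSK1 call was lost in 8 of 21 alternatives: with hcRED alone (0.18) or Mock alone (0.0518), and without BRSK1 replicate 1 (0.0764), 2 (0.0947) or 3 (0.129), Mock replicate 3 (0.106), or hcRED replicate 1 (0.0594) or 3 (0.121). ZNF850 overlaps ZNF567 on the opposite strand, whose value with BRSK1 was 0.06.

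ZNF121 (chr19:9560353-9584533, minus strand), with 9 fingers and no KRAB pattern, was among the more abundant members. Its level was 77.7, 60.2 and 60.7 CPM with BRSK2, 54.8, 58.1 and 52.7 CPM with BRSK1, 66.7 and 59.5 CPM with hcRED and 74.6 and 80.1 CPM in Mock. The BRSK1 libraries were the lowest, but the hcRED libraries lay between them and Mock. The log2 fold change with BRSK1 was -0.34 ± 0.08 (SE, edgeR adjusted p = 0.015). With hcRED alone as control it was -0.19 and did not pass (adjusted p = 0.361), nor did it without BRSK1 replicate 3 (0.11), Mock replicate 3 (0.0503) or hcRED replicate 1 (0.0818). ZNF526 (chr19:42220271-42228201, plus strand), a gene linked to an inherited neurodevelopmental disorder, has 13 fingers and a GC content of 57.8%. Its level was 28.8, 27.4 and 21.9 CPM with BRSK2, 25.4, 22.8 and 22.3 CPM with BRSK1, 27.7 and 29.2 CPM with hcRED and 30.8 and 30.4 CPM in Mock, with a log2 fold change of -0.33 ± 0.09 with BRSK1 (SE, edgeR adjusted p = 0.0318). The BRSK1 libraries lay below all controls. The call was lost in 7 of 21 alternatives, with adjusted p = 0.228 with hcRED alone, and 0.113, 0.173, 0.0597, 0.0655, 0.0765 and 0.0908 without BRSK1 replicate 2, BRSK1 replicate 3, Mock replicate 2, Mock replicate 3, hcRED replicate 1 and hcRED replicate 3.

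In the authors' deposited table for BRSK2, 3 of the 723 genes listed were members: ZNF581 with a log2 fold change of 0.86, ZNF837 with 0.64 and ZNF587B with -0.74. ZNF772 and ZNF260, which passed with BRSK2 in the fit used here, were not listed. In the authors' deposited table for BRSK1, 7 of 879 were members, among them ZNF557 at -0.46, which did not pass in the fit used here, and the 6 called above.

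Promoter sequences are shown for the called members because several share an element. The RefSeq promoter table (GRCh38.p14) held a window from 250 bases before to 50 bases after the start for 215 of the 249 members. These starts are those of RefSeq, and the windows of ZNF581 and ZNF587B lie inside the counted genes, away from their first base. The ZNF581 window also overlaps the end of ZNF580. The windows of the members that rose, ZNF581 (chr19:55643399-55643698, plus strand) and ZNF837 (chr19:58380981-58381280, minus strand), and of the 2 with the largest fall with BRSK2, ZNF587B (chr19:57830049-57830348, plus strand) and ZNF772 (chr19:57477517-57477816, minus strand), are printed 5′ to 3′ along the gene's strand. Capitals mark a match to ACT, any base, C, any 4 bases and CCCAG.
ZNF581: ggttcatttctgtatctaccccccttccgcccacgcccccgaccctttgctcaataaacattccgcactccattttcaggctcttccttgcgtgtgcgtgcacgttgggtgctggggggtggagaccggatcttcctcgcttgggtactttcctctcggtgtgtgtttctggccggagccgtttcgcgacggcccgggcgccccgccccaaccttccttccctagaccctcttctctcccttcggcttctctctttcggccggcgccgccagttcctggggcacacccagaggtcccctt
ZNF837: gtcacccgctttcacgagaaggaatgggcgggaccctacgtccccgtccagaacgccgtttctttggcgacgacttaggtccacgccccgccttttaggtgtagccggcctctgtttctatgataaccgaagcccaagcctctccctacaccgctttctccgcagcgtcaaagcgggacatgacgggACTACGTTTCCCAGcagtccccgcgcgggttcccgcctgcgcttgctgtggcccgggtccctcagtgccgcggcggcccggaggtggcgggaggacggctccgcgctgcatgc
ZNF587B: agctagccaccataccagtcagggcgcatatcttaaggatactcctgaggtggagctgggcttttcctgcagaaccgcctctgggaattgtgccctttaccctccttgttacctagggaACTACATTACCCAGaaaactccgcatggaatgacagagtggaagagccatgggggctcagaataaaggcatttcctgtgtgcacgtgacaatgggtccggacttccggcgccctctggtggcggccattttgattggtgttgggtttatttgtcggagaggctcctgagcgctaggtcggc
ZNF772: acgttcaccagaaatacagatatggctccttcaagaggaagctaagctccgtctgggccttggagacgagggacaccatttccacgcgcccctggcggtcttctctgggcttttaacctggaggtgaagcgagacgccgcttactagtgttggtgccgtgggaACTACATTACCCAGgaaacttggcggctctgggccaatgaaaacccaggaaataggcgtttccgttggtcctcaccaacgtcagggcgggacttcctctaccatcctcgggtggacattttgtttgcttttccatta

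Of these windows, ZNF587B and ZNF772 held the stricter form, ACTACA, any 3 bases and CCCAG, which resembles the long known recognition sequence of the factor ZNF143. ZNF837 held only the looser form, and ZNF581 held neither. Among the other called members, ZNF260 held the stricter form on the opposite strand, ZNF850 held it on the gene's strand, ZNF134 held the looser form, and the windows of ZNF121 and ZNF526 held neither. The 30 bases around the matches in ZNF260 (window chr19:36528222-36528521, minus strand), ZNF850 (window chr19:36772758-36773057, minus strand) and ZNF134 (window chr19:57613992-57614291, plus strand) are shown with the match in capitals. A match is a description of the letters and no evidence of binding.
ZNF260: tgaaccttCTGGGAAATGTAGTctaccctc
ZNF850: ggctctggACTACATTTCCCAGaggatccc
ZNF134: acatgagaACTGCATTGCCCAGaaacctgt

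The stricter form was common in the family. On either strand, it was present in 42 of 215 member windows (19.5%), against 371 of 27305 windows of all genes (1.36%) and 2.39% of the 1295 windows of other chromosome 19 genes. The looser form, which includes the stricter one, was present in 26% of member windows and 2.48% of all windows. By contrast, TGACNNNGC, the core of the antioxidant response element read by NRF2, was present in 14.4% of member windows and 13.6% of all windows, and TGACGTCA, the cyclic AMP response element, in 3.26% and 1.98%. The element followed the map: 17 members of cluster 9, 10 of cluster 7 and 9 of cluster 6 carried the stricter form, clusters 1, 5 and 8 and the scattered genes carried it once each, cluster 2 carried it in 2 members, and clusters 3 and 4 did not carry it.

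Members with the stricter element had lower median fold changes than members without it in both kinase comparisons. The search was chosen after the windows of the called members had been seen, so no test is given, and 3 of the 5 members called with BRSK2 and 2 of the 6 called with BRSK1 carry it. Among the 40 tested members with the element, the median log2 fold change was -0.17 with BRSK2 and -0.15 with BRSK1, with 28 and 31 of 40 below 0. The BRSK2 median was -0.10 without hcRED replicate 3 and -0.25 without hcRED replicate 1. It was -0.28 when scaled by library totals, which also moved the members without the element to -0.13. The BRSK1 median was between -0.17 and -0.10 with any 1 library left out. Among the 134 tested members whose window lacked it, the medians were -0.03 and -0.0013, with 80 and 70 of 134 below 0. Leaving out the called members gave -0.11 and -0.14 with the element (36 members) and -0.03 and -0.00095 without it (129 members). The median GC content was 42.5% with the element and 42.4% without it, and the median level 6.90 and 6.91 CPM, and with GC trends removed the medians were -0.15 and -0.16 with it and 0.01 and -0.02 without it. The 249 other tested genes with the element in the window had medians of -0.02 with BRSK2 and -0.0046 with BRSK1.

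**Figure D2:**
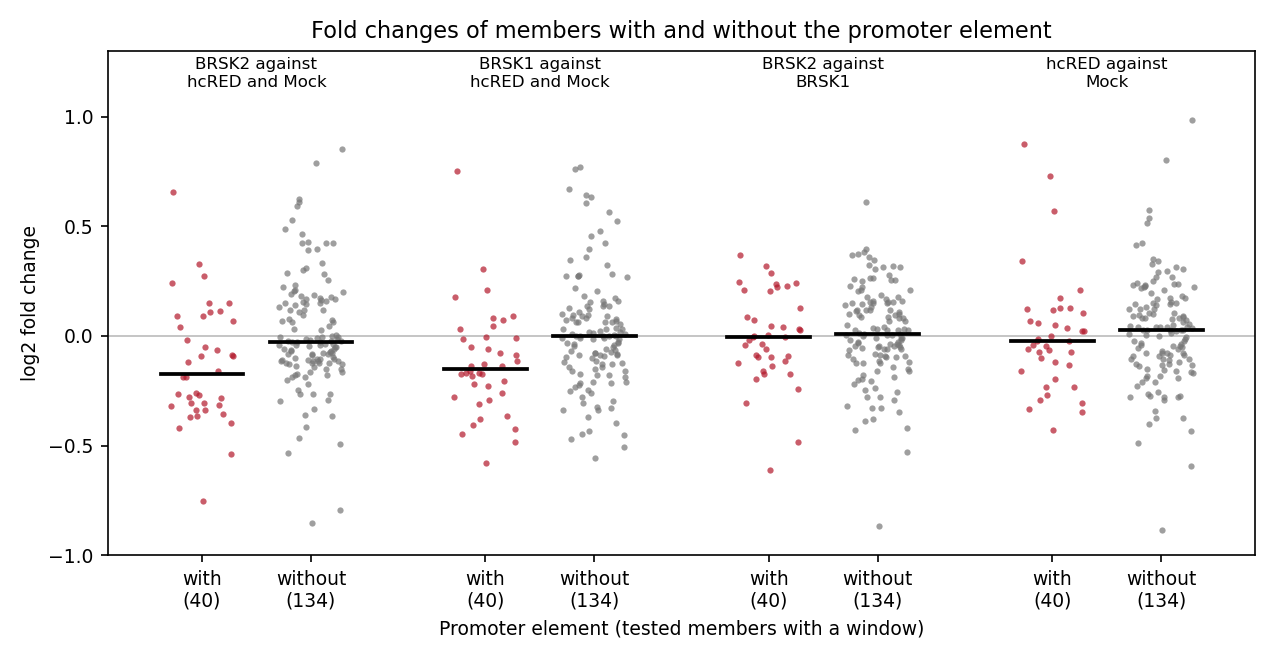
Log2 fold change of each tested member with (red) and without (grey) the stricter promoter element in the 4 comparisons; points are genes, bars are medians and numbers under the axis are genes. The medians with the element are -0.17 and -0.15 in the kinase comparisons and near 0 in the other 2, and 10 points with a size of 1 or more are not drawn.

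By library, the median deviation of the element-bearing members from their mean over all libraries, on the log2 CPM scale, was -0.07, -0.08 and -0.07 in the BRSK2 libraries, -0.09, 0.0033 and -0.03 in the BRSK1 libraries, 0.03 and 0.12 in the hcRED libraries and 0.05 and 0.12 in the Mock libraries. Every kinase library lay below every control library. The closest, BRSK1 replicate 2 at 0.0033 and hcRED replicate 1 at 0.03, lay nearer than the spread between replicate libraries (SD 0.06). The called members are included in these values. For the members without it, the same values were 0.03, -0.02 and 0.04 with BRSK2, -0.07, 0.05 and -0.02 with BRSK1, -0.01 and 0.07 with hcRED and -0.06 and 0.08 in Mock, and the groups overlapped. Within cluster 7 the 10 members with the element had a median of -0.26 with BRSK2, all 10 below 0, against 0.07 for 9 without it, 4 below 0. Within cluster 6 the values were -0.31 for 9 members with it, 7 below 0, and -0.07 for 15 without it, 10 below 0. Within cluster 9 the values were -0.19 for 15 with it, 10 below 0, and -0.0065 for 33 without it, 18 below 0. With BRSK1 the medians with and without it were -0.19 and -0.04 in cluster 7 and -0.13 and -0.0080 in cluster 6. In cluster 9 the BRSK1 medians were -0.17 and -0.09. The 6 tested carriers outside these clusters had a median of 0.19 with BRSK2 and 0.06 with BRSK1.

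The cluster medians differed by little. Cluster 7 had the lowest median with BRSK2, -0.23, with 18 of 23 members below 0, and it was -0.08 with BRSK1, with 17 of 23 below 0. For hcRED against Mock the median of cluster 7 was 0.11, with 16 of 23 above 0. None of its members passed the test, and ZNF45, its member with the smallest p, had 19.7, 20.4 and 17.3 CPM with BRSK2, 19.1, 20.9 and 18.3 CPM with BRSK1, 19.8 and 22.5 CPM with hcRED and 24.2 and 26.9 CPM in Mock. Those libraries overlapped, and the value of -0.28 ± 0.09 with BRSK2 (SE, edgeR adjusted p = 0.0718) came with a difference of -0.27 ± 0.12 between hcRED and Mock (adjusted p = 0.521). With Mock alone as control ZNF45 passed for both kinases (adjusted p = 0.0313 for BRSK2 and 0.032 for BRSK1). By library, the median deviation of cluster 7 was -0.08, -0.02 and -0.09 with BRSK2, -0.13, 0.09 and -0.07 with BRSK1, 0.06 and 0.26 with hcRED and 0.04 and 0.05 in Mock, so hcRED replicate 3 stood highest. Leaving out any 1 library, hcRED replicate 3 included, kept the BRSK2 median of cluster 7 between -0.27 and -0.14.

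Cluster 4 had a median of 0.07 with BRSK2, with 12 of 20 above 0, and 0.12 with BRSK1, with 16 of 20 above 0, but it was also 0.12 for hcRED against Mock, with 14 of 20 above 0. The BRSK2 median did not keep its size or sign: it was 0.0090 without hcRED replicate 1, 0.02 without BRSK2 replicate 3 and 0.11 without BRSK2 replicate 1. Scaled by library totals, which lowers the median of all tested genes as well, it was -0.03. The BRSK1 median was between 0.10 and 0.19 with any 1 library left out. ZNF429, its member with the smallest p and a KRAB gene with 15 fingers, had 3.72, 3.74 and 3.12 CPM with BRSK2, 3.98, 3.98 and 3.11 CPM with BRSK1, 2.50 and 2.15 CPM with hcRED and 2.73 and 2.92 CPM in Mock. All kinase libraries lay above all controls, and neither value passed (0.46 ± 0.20, edgeR adjusted p = 0.15 with BRSK2, and 0.52 ± 0.19, adjusted p = 0.1 with BRSK1). In cluster 9, with 53 tested members, the median was -0.03 with BRSK2 and -0.11 with BRSK1, with 30 and 38 below 0, and 4 of its 53 members passed with BRSK2 (7.55%) and 3 with BRSK1 (5.66%), shares near the 7.82% and 6.43% of all tested genes. The other clusters and the scattered genes had medians of -0.11 to -0.0040 in the BRSK2 comparison and -0.11 to 0.11 in the BRSK1 comparison, and each cluster of 5 or fewer members rests on 4 or 5 tested genes.

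Members with the smallest p in their clusters that did not pass included ZNF627 of cluster 3, at 8.22, 10.7 and 10.5 CPM with BRSK2, 8.57, 9.70 and 8.09 CPM with BRSK1, 7.02 and 8.32 CPM with hcRED and 6.87 and 7.03 CPM in Mock (BRSK2 0.42 ± 0.14, edgeR adjusted p = 0.0546). Of its kinase libraries, 2 reached no higher than the upper hcRED library. The BRSK2 value passed with the GC correction (adjusted p = 0.0363), the GC and length correction (0.0346), the filter of 1 CPM (0.047) and without BRSK2 replicate 1 (0.0131). ZNF320 of cluster 8, at 0.487 to 0.738 CPM in the kinase libraries and 0.942 to 1.26 CPM in the controls, had the lowest value of those named with BRSK1, -1.06 ± 0.38 (adjusted p = 0.096). The rest, ZNF554, ZNF555, ZNF561, ZNF599, ZNF480 and ZNF114, had log2 fold changes of -0.63 to 0.33 for BRSK2 and -0.34 to 0.21 for BRSK1, and none passed. ZNF114 was the lowest of them with BRSK2, at 2.46, 1.08 and 0.891 CPM, against 2.83 and 1.96 CPM with hcRED and 2.52 and 1.88 CPM in Mock, and passed without BRSK2 replicate 1 (adjusted p = 0.0128).

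**Figure D3:**
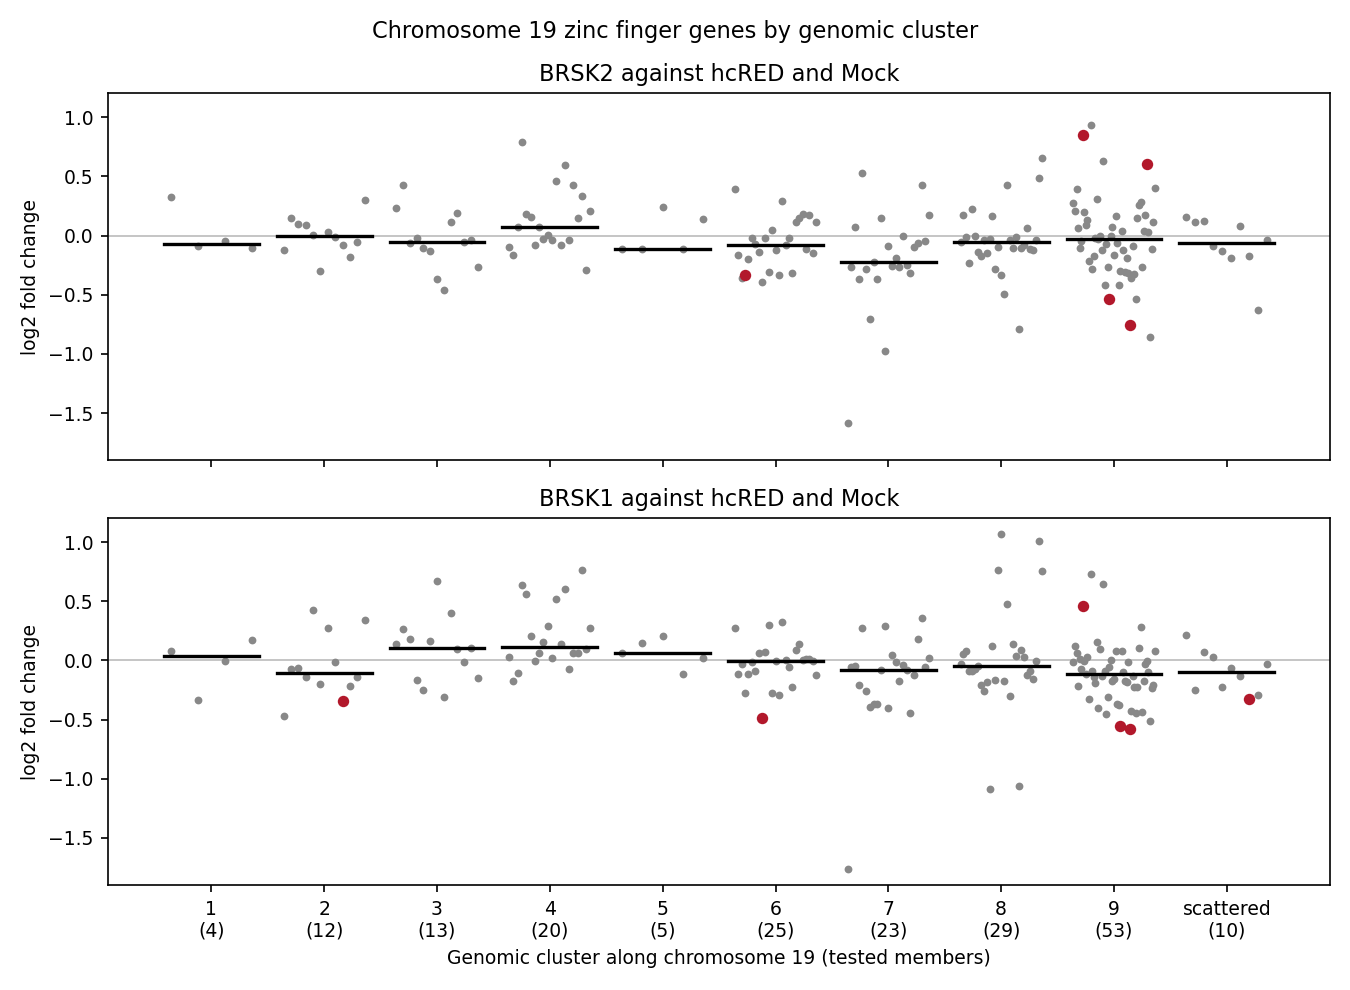
Log2 fold change of each tested member (points) by genomic cluster along chromosome 19, with BRSK2 above and BRSK1 below; red points passed the test, bars are cluster medians and the numbers in parentheses are tested members. The bars stay within -0.23 and 0.12 of 0, lowest in cluster 7 with BRSK2 and highest in cluster 4 with BRSK1.

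Over all 194 tested members the median was close to 0. The median log2 fold change was -0.05 with BRSK2, with 122 of 194 (62.9%) below 0, and -0.04 with BRSK1, with 114 (58.8%) below 0, where the median of all tested genes was 0.0023 and 0.0026 and 49.5% and 49.4% were below 0. These medians are of the size of the spread between replicate libraries (SD 0.06). With BRSK2 the median was -0.11 without Mock replicate 2, and -0.02, -0.03 and -0.02 without BRSK2 replicate 2, Mock replicate 3 and hcRED replicate 3. Leaving out hcRED replicate 3 gave a BRSK1 median of -0.0088, leaving out hcRED replicate 1 gave -0.08, and leaving out BRSK1 replicate 2 or 3 gave -0.06. The quartiles of the members' values were -0.18 and 0.13 in the BRSK2 comparison and -0.18 and 0.09 in the BRSK1 comparison. The libraries of the kinase and the controls were fully apart for 34 members with BRSK2 (11 higher and 23 lower, 17.5% of members, background 17.3%) and for 30 with BRSK1 (8 higher and 22 lower, 15.5%, background 18.4%). At an unadjusted p under 0.05 there were 35 members in each comparison, 10 higher and 25 lower in both, or 18.0% of members, against 23.0% and 21.8% of all tested genes. For the libraries apart and for this p, shares of all tested genes by direction were not computed. The splits into higher and lower members therefore have no background beside them. Protein-coding ZNF genes on other chromosomes had medians of 0.0089 and -0.02, and 36 of 232 (15.5%) passed with BRSK2, 24 higher and 12 lower, and 21 (9.05%) with BRSK1, 13 higher and 8 lower. Those genes were more abundant, with a median of 16.8 CPM, and the difference in shares was not tested.

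Fold changes were also set against GC content. Across genes, which are not independent replicates, Spearman's rho between log2 fold change and transcript GC content was 0.17 with BRSK2, -0.11 with BRSK1, 0.34 for BRSK2 against BRSK1 and -0.03 for hcRED against Mock over the 16936 tested genes. Among the 194 members it was 0.07, -0.19, 0.32 and 0.02. The rho of a single library's deviations with GC content over all genes spread between replicate libraries with an SD of 0.124. The first and the last of the members' values are smaller than that. This SD is not the spread of a rho of fold changes over the members, which was not measured. With 1 library left out, the members' rho was between 0.02 (without Mock replicate 3) and 0.13 (without BRSK2 replicate 1) with BRSK2, between -0.26 (without BRSK1 replicate 3) and -0.10 (without BRSK1 replicate 2) with BRSK1, and between 0.22 and 0.36 for BRSK2 against BRSK1. The 31 members with a GC content of 50% or more had a median of 0.12 with BRSK2, with 24 above 0, -0.04 with BRSK1, with 11 above 0, and 0.18 for BRSK2 against BRSK1, with 27 above 0. The 163 below 50% had -0.08, -0.03 and -0.03. Non-members with a GC content of 50% or more had 0.05, -0.02 and 0.06, and those below 50% had -0.03, 0.02 and -0.05, so members and non-members followed the same direction between BRSK2 and BRSK1.

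**Figure D4:**
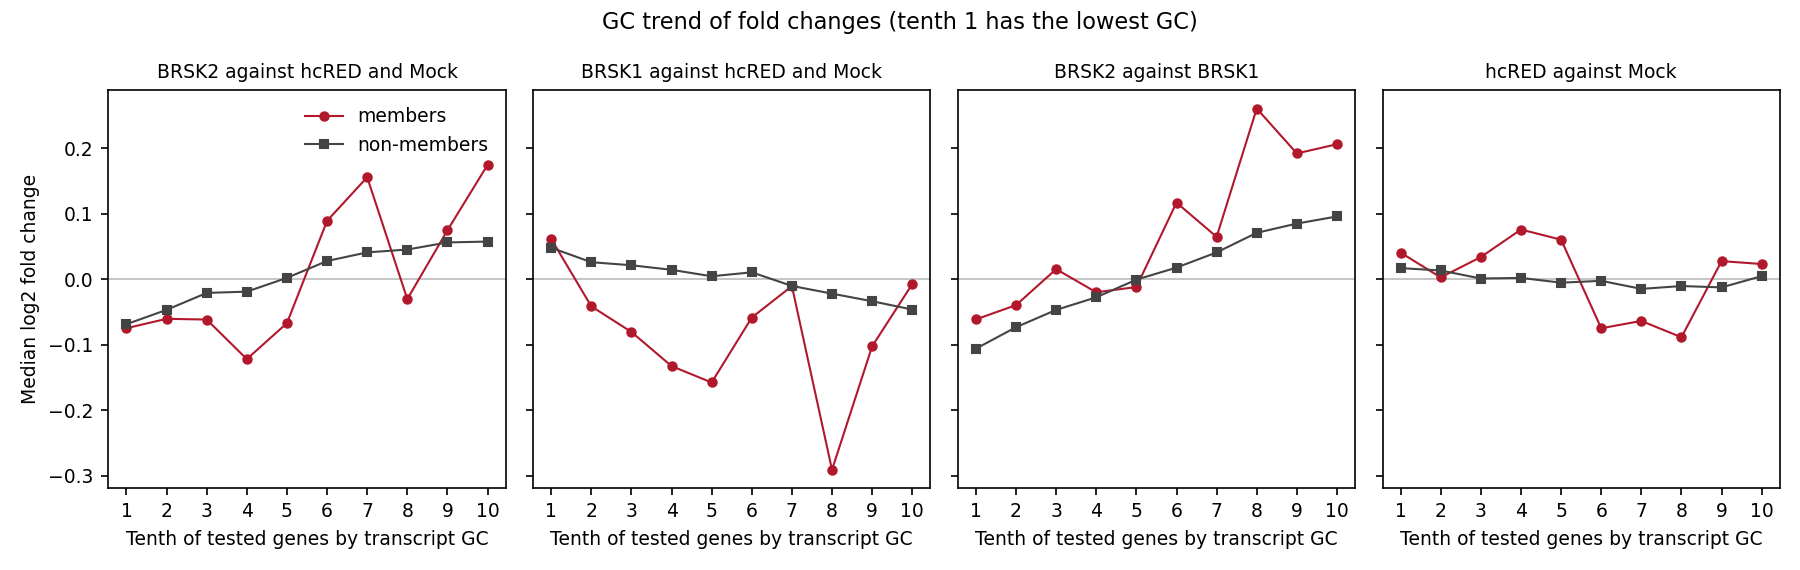
Median log2 fold change of members (red) and non-members (grey) in 10 equal groups of tested genes by transcript GC content, for the 4 comparisons. In BRSK2 against BRSK1 both lines run upward with GC, while the members' points in the 5 most GC-rich groups rest on 2 to 13 genes each and scatter widely.

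The libraries themselves differed in this trend, which is the across-gene rho between a library's deviation from each gene's mean and GC content. It was 0.17, 0.24 and 0.12 in the BRSK2 libraries, -0.05, -0.32 and -0.05 in the BRSK1 libraries, -0.0033 and -0.08 in the hcRED libraries and 0.14 and -0.12 in the Mock libraries. The 2 Mock libraries took opposite signs, and BRSK1 replicate 2 stood lowest. With the trend removed, the members' rho for BRSK2 against BRSK1 was 0.05 and their median fold change -0.02 with BRSK2 and -0.04 with BRSK1. Whether the GC trend was of technical or biological origin was not tested.

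**Figure D5:**
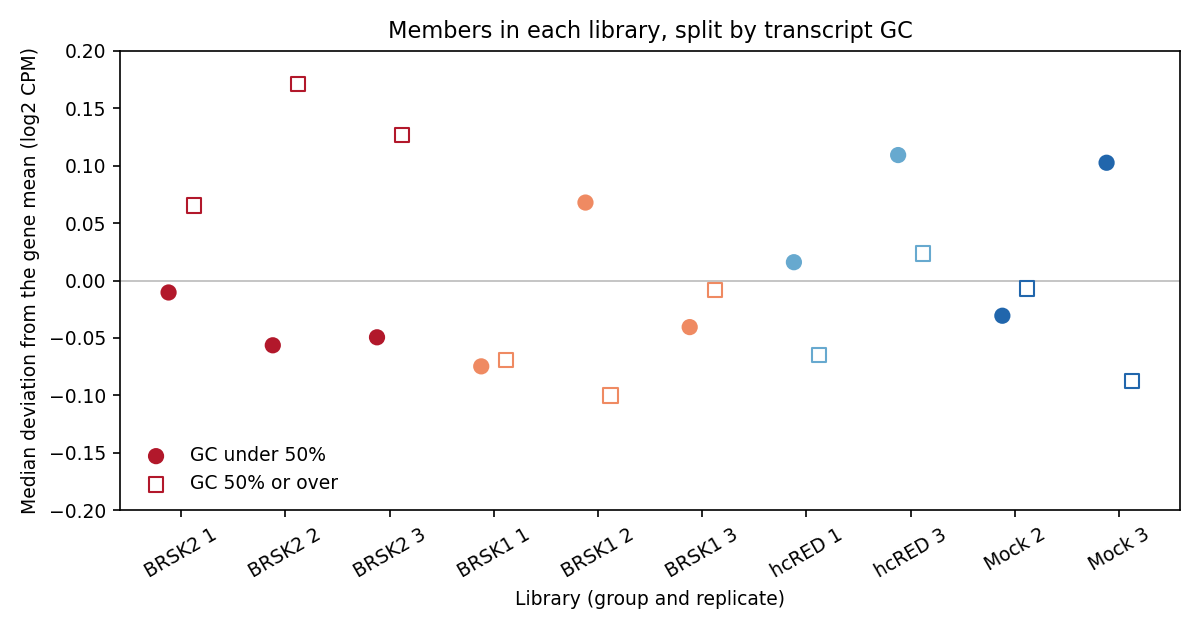
Median deviation of members from their mean over all libraries (log2 CPM) in each library, with filled circles for 163 members of GC content under 50% and open squares for 31 of 50% or more. The squares are above the circles in all 3 BRSK2 libraries, at 0.07, 0.17 and 0.13, and below them in BRSK1 replicate 2, both hcRED libraries and Mock replicate 3.

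Members without a KRAB pattern were the more GC-rich ones, and the 36 of them had a median of 0.09 with BRSK2 and -0.03 with BRSK1, while the 158 with the pattern had -0.07 and -0.04. With BRSK2, 3 of the 36 without the pattern passed (8.33%), against 2 of the 158 with it, where 7.82% of all tested genes passed. With BRSK1 it was 4 of 36 (11.1%), against 2 of 158, where 6.43% of all tested genes passed. The members without the pattern were also the more abundant, with a median of 16.8 CPM against 6.02 CPM, and the part of level and GC content in these shares was not tested. KRAB pattern and GC content could not be separated well, since only 9 of the 158 lay at 50% or more. The 22 GC-rich members without the pattern had a median of 0.13 with BRSK2, with 17 of 22 above 0. For BRSK2 against BRSK1 they had 0.20, with 20 of 22 above 0. All 31 GC-rich members, with or without the pattern, had 0.12 and 0.18, with 24 and 27 of 31 above 0. The part of the pattern and of GC content in these medians was not tested. By number of fingers, the medians with BRSK2 were 0.05 for members with up to 9, -0.03 for 10 to 12, -0.06 for 13 to 15 and -0.11 for 16 or more, while GC content was 45.4%, 42.2%, 42.3% and 41.0%. With BRSK1 the same groups had -0.07, 0.0003, -0.0031 and -0.07.

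Set directly against each other, BRSK2 and BRSK1 differed in 1 of 194 members (0.515%, background 0.348%, and 0.23% of all tested genes higher with BRSK2). That member, ZNF581, was higher with BRSK2 by 0.40 ± 0.08 on the log2 scale, or 1.32-fold (SE, edgeR adjusted p = 0.038). The call was lost with the GC correction (0.32, adjusted p = 0.192), with the GC and length correction (0.0814), and without BRSK1 replicate 1 (0.152), 2 (0.147) or 3 (0.0862), BRSK2 replicate 2 (0.12) or 3 (0.198), or hcRED replicate 1 (0.0598) or 3 (0.0604). The next by p were ZNF324, at 31.9, 32.1 and 27.4 CPM with BRSK2, against 24.4, 24.0 and 24.9 CPM with BRSK1, then ZNF837, ZNF772 and ZNF121. ZNF324, which overlaps ZNF446, had 0.32 ± 0.09 (adjusted p = 0.135), and ZNF121 had 0.26 ± 0.09 (adjusted p = 0.191). The members' median was 0.0012, with 97 on each side of 0, and libraries were fully apart for 29 of them (14.9%, background 17.7%).

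Between the controls, hcRED against Mock, 0 members passed (background 0.0295%, with 0.0059% of all tested genes higher and 0.0236% lower with hcRED), with 10 at an unadjusted p under 0.05 by edgeR's test and 0 passing by DESeq2. The smallest p belonged to ZNF121, at 66.7 and 59.5 CPM with hcRED, against 74.6 and 80.1 CPM in Mock (-0.29 ± 0.10, SE, edgeR adjusted p = 0.379). ZNF324B had 16.2 and 15.9 CPM with hcRED, against 19.9 and 21.7 CPM in Mock (-0.38 ± 0.14, adjusted p = 0.384). Neither ZNF566, at -0.40 ± 0.15, nor ZNF461, at 0.57 ± 0.22, passed, and ZNF433, a gene of 0.309 CPM on average, rested on 1 hcRED library of 1.08 CPM. The median was 0.03, with 108 of 194 above 0, and libraries were fully apart for 66 members (34.0%), where 40.3% of all tested genes were.

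The co-repressors that KRAB zinc finger proteins work with passed the test about as often as all genes did. All 28 genes of the list were tested, and 2 rose with BRSK2 and none fell (7.14%, background 7.82%), while 1 rose and 1 fell with BRSK1 (7.14%, background 6.43%). TRIM28 itself, at 1091 to 1398 CPM over the libraries, had 0.13 for BRSK2 (edgeR adjusted p = 0.249), and for BRSK1 it had 0.02 (adjusted p = 0.881). SETDB1 rose by 0.34 with BRSK2 (adjusted p = 0.00161), while the BRSK1 value was 0.18 (adjusted p = 0.0804). Its value for hcRED against Mock was 0.19 and did not pass (adjusted p = 0.509). SUV39H1, another H3K9 methyltransferase, rose by 0.34 with BRSK2 (adjusted p = 0.00491) and by 0.24 with BRSK1 (adjusted p = 0.041), and CHD3, a remodeller of the NuRD complex, had -0.29 with BRSK2 (adjusted p = 0.107) and fell by 0.39 with BRSK1 (adjusted p = 0.0395). The list's median was -0.02 with BRSK2 and -0.03 with BRSK1, and no gene of it passed between the kinases or between the controls. The calls of these co-repressors were not followed over the alternatives of processing and of libraries left out.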

How the data were processed

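RNA of 10 HEK293T libraries was analysed as raw read counts per gene, which the authors deposited in 2 tables that share the 4 control libraries (0 control values differed). The submitters' processing notes name STAR, edgeR, limma and the build hg38. No counter, strand option or annotation release is given in the sources used here, and their effect on overlapping genes was not tested. The authors' deposited tables of differential expression give log2 fold changes, p-values and adjusted p-values, per the file headers, and were used only where named. Their score columns (a moderated statistic and log odds, per the file headers) were not used.

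The counts were fitted in edgeR 4.0.16 (R 4.3.3): TMM factors, filterByExpr (minimum count 10, total 15), 1 quasi-likelihood fit of 4 group means with robust estimation over 16936 genes, and Benjamini-Hochberg adjustment over all of them at 0.05. Each kinase was compared with the mean of hcRED and Mock. Standard errors were derived from each fold change and its F statistic. CPM values are TMM-scaled, and before that scaling 1 CPM stands for 16.5 to 24.3 reads. DESeq2 1.42.0 was an alternative. The fit was also run on simulated counts with known changes, which were larger than the member medians given here and only in genes above a minimum level. That run does not cover smaller changes or lower genes. GC content was taken over a gene's longest transcript in GENCODE, matched by ID. Fingers and the KRAB pattern were searched for in annotated reading frames, which need not be those of that transcript. Member medians, clusters and GC trends are descriptions with no test.

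The members, lists and tests were chosen with earlier results of these data known. Named members are, for each kinase against controls, up to 8 called in each direction with at least 1 CPM and the smallest p in each cluster, then the 5 highest per length and the 5 smallest p in the other comparisons, and of the co-repressors TRIM28, SETDB1 and those called. Other members are named where a count or overlap calls for it. Alternatives covered scaling, filters, DESeq2, the replicate number as a block, GC and length, either control alone, each library left out and the gap between clusters.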

Additional observations from a re-analysis of the deposited data

Results flagged for a closer look

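ZNF581 differed between the kinases. Its log2 fold change for BRSK2 against BRSK1 was 0.40, with 44.4, 50.5 and 54.8 CPM in the BRSK2 libraries and 36.8, 36.3 and 40.5 CPM in the BRSK1 libraries, and the direct difference passed edgeR's test (adjusted p = 0.038). It is listed here because the effects of the 2 kinases on this gene differed by a test of the difference itself. ZNF581 has a GC content of 59.6%, and the GC trend between the BRSK2 and BRSK1 libraries moves in the same direction. With that trend removed the difference was 0.32 (adjusted p = 0.192), and the part of GC content in it was not tested further.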

How the results depend on the processing

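Over the alternatives, no called value changed its direction. Of 1822 recomputed values for 97 results, 1628 counted as unchanged, 56 lost a call, 32 gained one and 106 moved. A gene counted as unchanged when it kept its side of the threshold. A median or rho did when it stayed within the spread, and a count when it stayed similar. Genes that were not called could change sign and still count as unchanged. ZNF433 for hcRED against Mock, for example, was at 2.44, and at -0.94 with 1 library left out. With library totals alone, which shift the median of all tested genes with BRSK2 by -0.10 (log2), 26 members passed with BRSK2 (24 of them lower, against 3 of 5), and the member median was -0.16 with BRSK2 and -0.0646 for BRSK2 against BRSK1. With the GC and length correction, 9 passed with BRSK2, 11 with BRSK1 and 0 for BRSK2 against BRSK1, where the GC correction also gave 0. The members' rho with GC content became -0.0558 and -0.0565 with BRSK2 under the GC and the GC and length corrections, and 0.0523 and 0.0932 for BRSK2 against BRSK1. With promoter GC content, which is known for 174 of 194 members, rho was 0.19 for BRSK2 against BRSK1 and -0.11 for hcRED against Mock. Over the 10911 of 16936 tested genes with a promoter value, rho was 0.08 with BRSK2 and -0.01 with BRSK1. It was 0.11 for BRSK2 against BRSK1 and -0.08 for hcRED against Mock. These values do not cover the same genes as those with transcript GC content. With hcRED alone as control, 2 passed with BRSK2 and 1 with BRSK1. Leaving out 1 library gave 2 to 15 calls with BRSK2 (15 without BRSK2 replicate 1, 2 without BRSK2 replicate 2 or 3, 3 without Mock replicate 3 or hcRED replicate 1), 2 to 8 with BRSK1 (2 without BRSK1 replicate 3 or hcRED replicate 1, 3 without BRSK1 replicate 2 or Mock replicate 3), and 0 to 1 for BRSK2 against BRSK1. The median for hcRED against Mock ranged from -0.0357 to 0.0836 and its rho from -0.11 to 0.13.

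The labels do not say what a shared replicate number stands for. The deviations of same-numbered BRSK1 and BRSK2 libraries correlated at 0.16, 0.00035 and 0.02. Those of all 12 same-numbered pairs of libraries correlated at -0.05 to 0.16, most of them above 0 and 2 over 0.1. Among the BRSK2 libraries, BRSK1 replicate 2 correlated best with replicate 3. The main fit did not take the numbers as a pairing, and whether they mark one was not tested. With the replicate number as a block, 12 members passed with BRSK2, 10 with BRSK1, 2 for BRSK2 against BRSK1 and 2 for hcRED against Mock. The added calls include ZNF837 for BRSK2 against BRSK1 (adjusted p = 0.0431), ZNF121 (0.0372) and ZNF324B (0.0414) for hcRED against Mock, and ZNF146 (0.0496), ZNF627 (0.0292), ZNF45 (0.0476) and ZNF787 (0.0456) with BRSK2. With the block and the GC correction, 12, 13, 2 and 4 passed, and the rho for BRSK2 against BRSK1 was 0.0602. The cause of these changes was not tested. With 136 of 194 tested members under 10 CPM, small changes were not detectable at this depth, and groups of 2 or 3 libraries limit the precision.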
